A study of Mus musculus with 12 samples.

Results

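Conjugating and hydrolysing enzymes of the colon were examined across 3 gene families, taken apart throughout: the UDP-glycosyltransferases (Ugt), the sulfotransferases (Sult) and the carboxylesterases (Ces). The members were all protein-coding rows whose symbol begins with Ugt, Sult or Ces and a digit, which gave 59 of 38087 genes with an Ensembl identifier: 21 Ugt, 18 Sult and 20 Ces genes. Messenger RNA of mouse colonic mucosa was sequenced in 12 libraries, 6 from wild type mice and 6 from Sgo1-/+ mice, which lack 1 functional copy of Sgo1, the gene of the centromere protector shugoshin 1. All mice of both groups had received the colon carcinogen azoxymethane, 4 mg per kg body weight 2 times a week from week 8 to week 12 of age, and the tissue was taken at 9 months. No group without azoxymethane was analysed here, and strain, sex and the segment of colon were not given in the sources used here, nor whether a library came from 1 animal. The p-values below therefore measure the spread between these libraries. Whole mucosa was used, so that fewer cells of a type and less RNA per cell cannot be told apart.

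Ugt enzymes of the 1a and 2b groups attach glucuronic acid, carried by UDP-glucuronic acid, to bilirubin, steroids, bile acids, drugs and dietary phenols, and sit in the membrane of the endoplasmic reticulum. Sult enzymes are mostly cytosolic and attach a sulfonate group from the donor PAPS to phenols, steroids and amines. Ces enzymes cut esters and amides, among them prodrugs and glycerides, and many are held in the endoplasmic reticulum. In the gut epithelium these enzymes meet dietary and microbial compounds first, and the conjugates leave the cell through efflux transporters.

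The libraries held 5711553 to 10198304 counts each, and levels are given as CPM, counts scaled to library size after adjustment by trimmed mean of M values. Genotypes were compared in all 13889 genes that passed a filter on low counts with edgeR's quasi-likelihood test, adjusted by Benjamini-Hochberg. None of the 13889 genes (0%) passed an adjusted p of 0.05 with edgeR or limma-voom, and 30 genes (0.216%) did with DESeq2, none of them a member. Unadjusted p-values under 0.05 were given to 1256 genes (9.04%) by edgeR and to 1415 genes (10.2%) by DESeq2. Of the edgeR genes, 4.73% of those tested were lower and 4.31% higher in Sgo1-/+ libraries, and these shares are the background for the counts below. Sgo1 itself, listed under its older symbol Sgol1, had 3.65 ± 1.81 CPM in wild type against 2.34 ± 0.405 CPM in Sgo1-/+ libraries (SD over 6 libraries each), with a log2 change of -0.67 ± 0.32 (SE; edgeR adjusted p = 0.551), and the genotypes overlapped. Rows that resemble mitochondrial transcripts took 35.4% to 36.7% of the counts in wild type replicates 3 and 5 and Sgo1-/+ replicate 3, and 10.1% to 21.5% in the other 9 libraries. These 3 libraries also stood apart in how the Ugt1a counts were divided. Changes with and without them are plotted for every tested member and given in the text for some. For 4 libraries (replicates 1 and 6 of the wild type, replicates 5 and 6 of Sgo1-/+) the names of the value columns end in a suffix of unstated meaning, and for some members the changes within these 4 and in the other 8 are given.

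Of the 59 members, 27 were abundant enough to be tested: 13 of 21 Ugt, 5 of 18 Sult and 9 of 20 Ces genes. No member passed the adjusted threshold (adjusted p 0.491 to 0.976). At an unadjusted p under 0.05 there were 0 of 13 Ugt, 0 of 5 Sult and 4 of 9 Ces members (3 lower and 1 higher), against 9.04% of all genes. The log2 change was below 0 for 24 of the 27, against 51.0% of all genes, with medians of -0.36 for Ugt, -0.20 for Sult and -0.38 for Ces beside -0.01 for all genes. The 27 are not independent: 7 of the 13 Ugt members are rows of 1 locus on chromosome 1 that share exons. Scaling by total counts alone raised the median of all genes by 0.32 and left 14 of the 27 below 0 (16.3% of all genes), while 24 of the 27 stayed below that median. Without the 3 libraries that stood apart 21 of the 27 were below 0 (Ugt 9 of 13, and 48.1% of all genes), with the mitochondrial-like share as a term in the fit 19 of the 27 (Ugt 7 of 13, and 53.0% of all genes), and within the 4 suffix libraries 17 of 26 tested (Ugt 7 of 12, and 51.0% of all genes). The change and error of every tested member, with all libraries and without the 3 that stood apart, are plotted together.

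**Figure D1:**
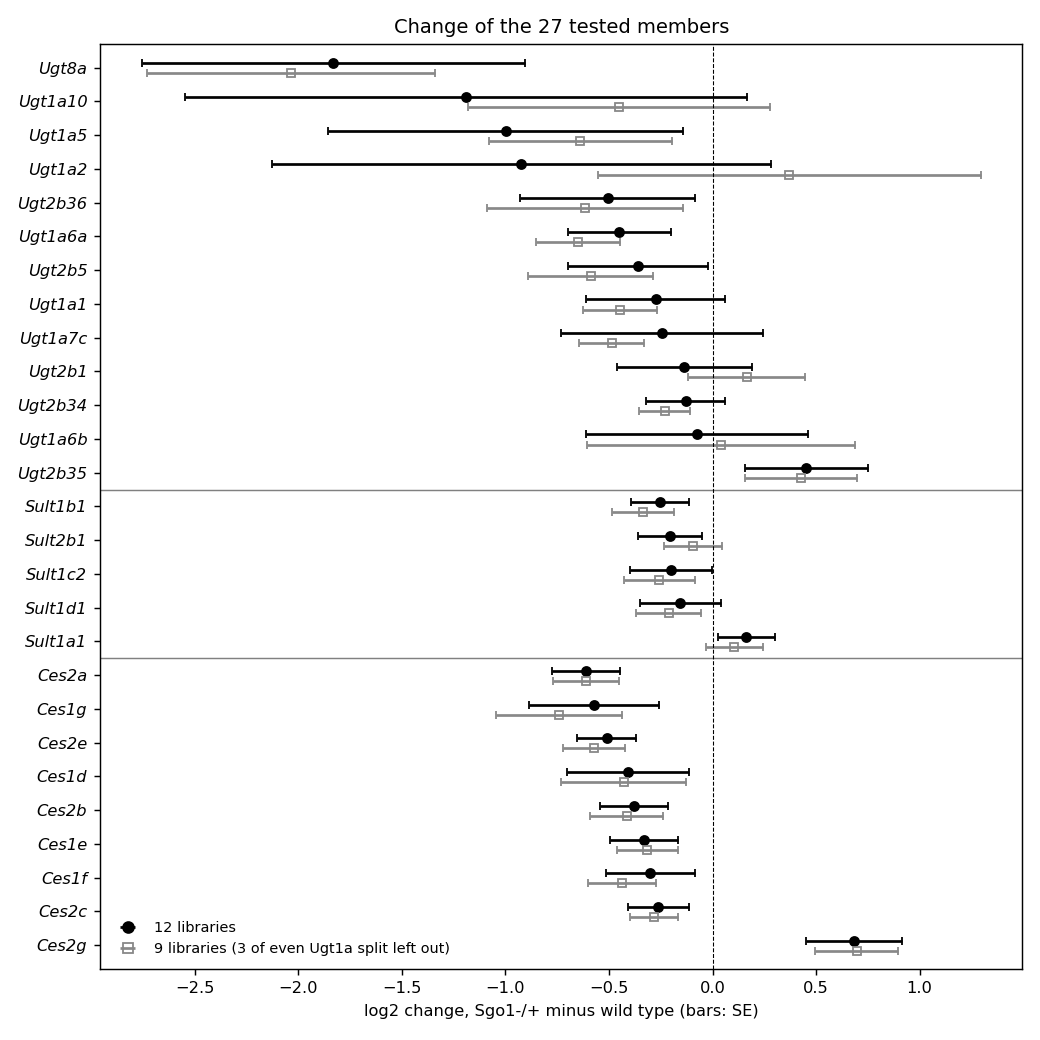
Log2 change (x axis, Sgo1-/+ minus wild type) with its standard error for the 27 tested members (y axis, by family); black circles are fits on 12 libraries, grey squares fits on the 9 libraries left without wild type replicates 3 and 5 and Sgo1-/+ replicate 3. Ces2a lies at -0.61 in both fits and Ces2g at 0.68 and 0.70, whereas Ugt1a2 turns from -0.92 to 0.37.

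The 9 Ugt1a rows share 1 locus on chromosome 1 (mm10, 88055388 to 88220002, plus strand). Each isoform starts from a first exon of its own, which encodes the part that binds the substrate, and is spliced to the same downstream exons, which encode the part that binds UDP-glucuronic acid. In the GENCODE transcripts, 3 downstream exons were identical in all 9 rows, the first of them at chr1:88215044-88215175, and the common stretch made up 57.9% to 71.7% of a transcript. The junctions are shown because they are where a row's own sequence meets the common one: each line gives the last 20 bases of the first coding exon in lower case and the first 20 bases of the common exon in capitals.
Ugt1a7c: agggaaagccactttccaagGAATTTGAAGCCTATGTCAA
Ugt1a8: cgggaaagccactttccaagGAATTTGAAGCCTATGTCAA
Ugt1a10: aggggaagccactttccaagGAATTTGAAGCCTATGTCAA
Ugt1a9: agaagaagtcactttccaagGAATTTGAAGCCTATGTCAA
Ugt1a1: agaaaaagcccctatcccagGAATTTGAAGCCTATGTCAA
Ugt1a6a: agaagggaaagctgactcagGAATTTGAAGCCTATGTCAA
Ugt1a6b: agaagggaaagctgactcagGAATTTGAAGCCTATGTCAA
Ugt1a5: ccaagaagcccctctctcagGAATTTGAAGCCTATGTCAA
Ugt1a2: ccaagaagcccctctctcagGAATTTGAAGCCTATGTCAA
The 9 rows had 7 distinct junctions: Ugt1a6a and Ugt1a6b shared 1, and so did Ugt1a5 and Ugt1a2. Only 20.2% (Ugt1a6b) to 47.9% (Ugt1a6a) of the 50-base words of a row's transcripts occurred in no other gene's transcripts, so each isoform's count depends on how the authors' counting divided the rest.

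That division differed between libraries of the same genotype. In 9 libraries Ugt1a7c held 58.3% to 70.3% of the locus and the rows of Ugt1a2, Ugt1a8, Ugt1a9 and Ugt1a10 together held 0.0107% to 1.27%. In wild type replicates 3 and 5 and Sgo1-/+ replicate 3, the Ugt1a7c share was 21.7% to 23.3% and those 4 rows together held 32.7% to 33.2%. The 4 rows were nearly equal there: 163 to 164 counts each in wild type replicate 3, 108.6 to 108.7 in wild type replicate 5 and 134.0 to 134.2 in Sgo1-/+ replicate 3. In the other 9 libraries a row of these 4 had at most 54.5 counts. The part of the counting method in this was not tested.

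**Figure D2:**
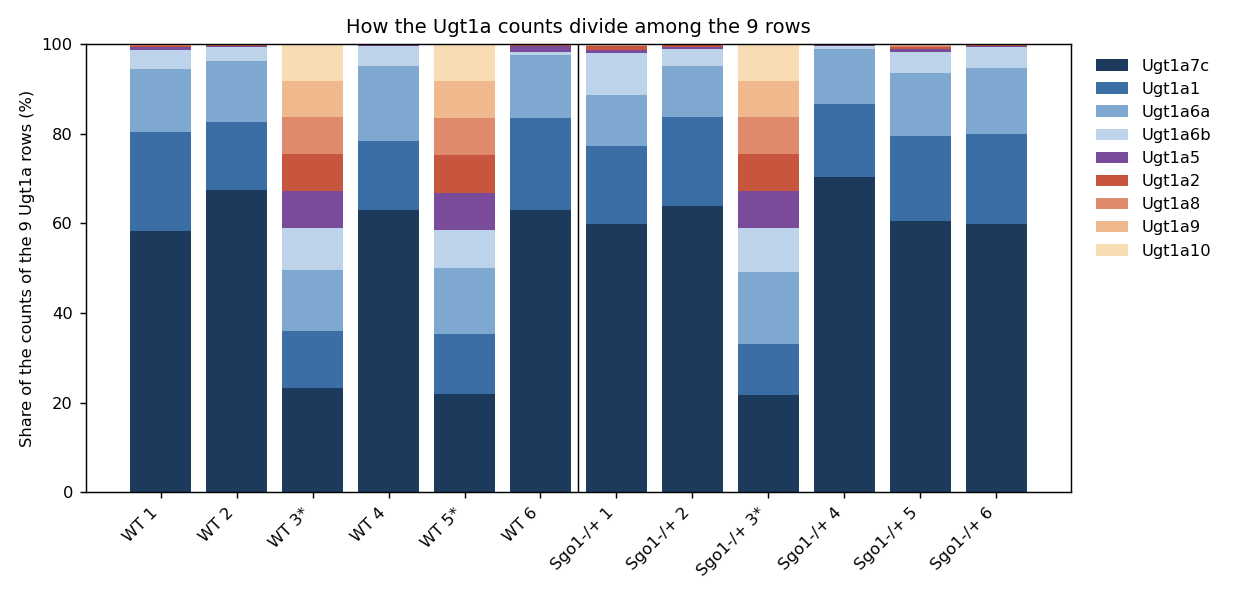
Share of the counts of the 9 Ugt1a rows (y axis, percent) that each row holds in each library (x axis; the line parts wild type from Sgo1-/+). In the 3 libraries marked with an asterisk Ugt1a7c (darkest) holds 21.7% to 23.3% and the 9 rows are more even, against 58.3% to 70.3% for Ugt1a7c in the others.

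Ugt1a7c, a gut isoform that conjugates phenols, ranged from 76.8 through a median of 473 to 590 CPM in wild type and from 82.3 through 346 to 480 CPM in Sgo1-/+ libraries. The lowest values of both genotypes came from the 3 libraries of even division, and the ranges overlapped. Its log2 change was -0.24 ± 0.49 (SE; edgeR adjusted p = 0.894) over all libraries and -0.49 ± 0.16 (adjusted p = 0.330) without those 3. Ugt1a1, the enzyme that conjugates bilirubin, ranged from 46.3 through 136 to 191 CPM in wild type and from 42.9 through 95.2 to 160 CPM in Sgo1-/+ libraries. Its change was -0.27 ± 0.34 (edgeR adjusted p = 0.814), and -0.45 ± 0.18 (adjusted p = 0.386) without the 3 libraries. Ugt1a6a, which conjugates small planar phenols, ranged from 51.3 through 108 to 152 CPM in wild type and from 56.5 through 69.3 to 120 CPM in Sgo1-/+ libraries, where replicate 6 alone exceeded 71.7 CPM. Its change was -0.45 ± 0.25 (edgeR adjusted p = 0.597), and -0.65 ± 0.20 (adjusted p = 0.330) without the 3 libraries.

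Ugt1a5, Ugt1a2 and Ugt1a10 passed the filter on low counts but had their highest values in the same 3 libraries. Ugt1a5 had 29.2 and 41.7 CPM in wild type replicates 5 and 3, 31.4 CPM in Sgo1-/+ replicate 3 and 1.95 to 9.79 CPM elsewhere. Its log2 change was -0.998 ± 0.86 (SE; edgeR adjusted p = 0.730), and -0.64 ± 0.44 (adjusted p = 0.602) without the 3 libraries. Ugt1a8 and Ugt1a9 were not tested, with at most 163 counts in a library, and Ugt1a6b ranged from 4.21 to 58.3 CPM, with a change of 0.53 within the suffix libraries and -0.30 outside them.

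Summing the 9 rows removes the division among them, a step chosen after the values were seen. The locus then had 349, 783 and 909 CPM (lowest, median and highest) in wild type and 378, 532 and 803 CPM in Sgo1-/+ libraries. The log2 change of the sum was -0.33 ± 0.24 (SE; edgeR unadjusted p = 0.198, adjusted p = 0.693). In the 9 remaining libraries the sum was 838 ± 93.1 CPM in wild type (SD, n = 4) and 595 ± 129 CPM in Sgo1-/+ (SD, n = 5), a change of -0.48 ± 0.16 (edgeR unadjusted p = 0.0122, adjusted p = 0.338). Sgo1-/+ replicate 6, with 803 CPM, lay above wild type replicate 6, with 701 CPM, so the genotypes still overlapped.

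The Ugt2 genes lie together on chromosome 5 (mm10, 86889767 to 87490871) and conjugate steroids, bile acids and drugs. Ugt2b34 was the most abundant Ugt row, with 42.0% of the family's CPM and 122 CPM per kb of exon, and 98.6% of its words were its own. It ranged from 349 through 592 to 757 CPM in wild type and from 343 through 525.8 to 609 CPM in Sgo1-/+ libraries, and the lowest 3 of the 12 values were those of the libraries of even Ugt1a division. Its log2 change was -0.13 ± 0.19 (SE; edgeR adjusted p = 0.843), and 0.18 with scaling by total counts. Without those 3 libraries it was -0.23 ± 0.12 (edgeR adjusted p = 0.486).

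Ugt2b35 was the only tested Ugt member with a change above 0, at 8.67 through 11.3 to 21.8 CPM in wild type and 8.31 through 19.4 to 27.9 CPM in Sgo1-/+ libraries. Its change was 0.45 ± 0.30 (SE; edgeR adjusted p = 0.658). In the libraries without a suffix in their column names the change was 0.06, and in the 4 with one it was 1.17, 2 libraries a genotype. Ugt2b36 was low throughout, with 1.44 through 2.63 to 6.63 CPM in wild type and 0.99 through 1.94 to 3.91 CPM in Sgo1-/+ libraries, a change of -0.51 ± 0.42 (edgeR adjusted p = 0.725). Ugt2b5 ranged from 16.8 to 54.2 CPM and Ugt2b1 from 2.74 to 12.3 CPM over the 12 libraries. Both turned sign with the suffix, at 0.11 within and -0.67 outside those libraries for Ugt2b5 and 0.41 and -0.38 for Ugt2b1. Ugt2b37, Ugt2b38, Ugt2a1, Ugt2a3, Ugt3a1 and Ugt3a2 had at most 7 counts in any library and were not tested.

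Ugt8a belongs to the family by symbol and sequence but makes galactosylceramide, a lipid of myelin, from UDP-galactose. It varied more than any other tested Ugt gene outside the Ugt1a locus, from 18.0 through 38.3 to 209 CPM in wild type and from 1.24 through 6.44 to 74.8 CPM in Sgo1-/+ libraries. The highest values were those of wild type replicate 5 and Sgo1-/+ replicate 3, and the genotypes overlapped. Its log2 change was -1.83 ± 0.92 (SE; edgeR adjusted p = 0.556), and -2.04 ± 0.69 (adjusted p = 0.343) without the 3 libraries of even Ugt1a division. Single libraries moved it widely, to -0.97 when wild type replicate 5 was left out and to -3.05 when Sgo1-/+ replicate 3 was, and it was -3.61 within the suffix libraries and -1.53 outside them.
The 5 markers of enteric neurons and glia summed to 67.8 CPM in wild type replicate 5 and 44.2 CPM in Sgo1-/+ replicate 3, the highest sums of their genotypes, and to 3.99 CPM at the lowest. Of the 5 markers, 2 were abundant enough to be tested, none had an unadjusted p under 0.05 and none was at 0 counts in every library, and their part in the Ugt8a difference was not tested.

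**Figure D3:**
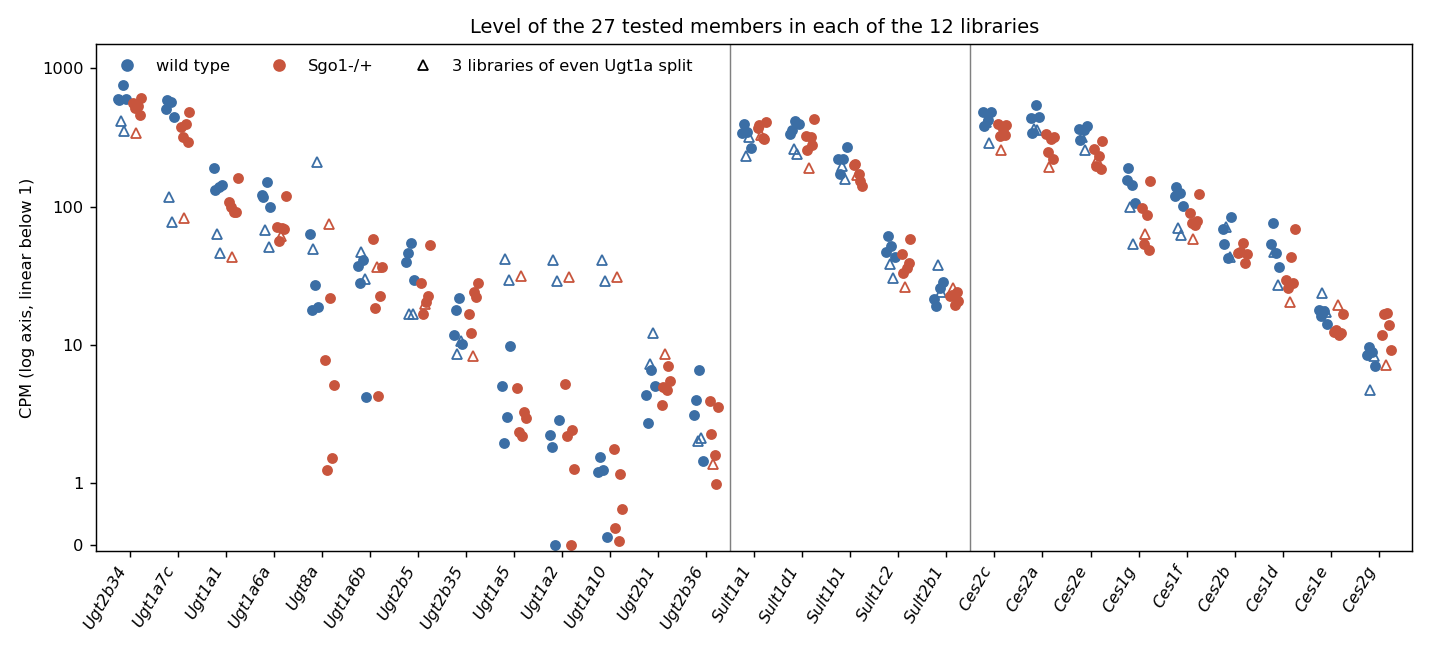
Level of each of the 27 tested members (x axis, ordered by mean within the Ugt, Sult and Ces families) in each library, in CPM on a log axis that is linear below 1. Blue points are wild type and red points Sgo1-/+ libraries, and open triangles mark the 3 libraries of even Ugt1a division, where Ugt1a7c falls to 76.8 to 117 CPM and Ugt1a5, Ugt1a2 and Ugt1a10 reach 29.0 to 41.7 CPM.

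Of the Sult family, 5 genes were abundant enough to be tested: Sult1a1, Sult1d1, Sult1b1, Sult1c2 and Sult2b1. Per kb of exon the order of the mean levels was Sult1a1 (222 CPM per kb), Sult1d1 (129), Sult1b1 (68.2), Sult1c2 (23.0) and Sult2b1 (6.17). The first 3 held 36.8%, 34.9% and 20.8% of the family's CPM. No Sult member had an unadjusted p under 0.05.

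Sult1a1, which sulfonates phenols, ranged from 233 through 329 to 394 CPM in wild type and from 308 through 351 to 411 CPM in Sgo1-/+ libraries. Its log2 change was 0.16 ± 0.14 (SE; edgeR adjusted p = 0.727), the only change above 0 among the 5 tested Sult members. Sult1d1, known for acting on catecholamines and other amines in rodents, ranged from 240 through 347 to 418 CPM in wild type and from 191 through 300 to 433 CPM in Sgo1-/+ libraries, with a change of -0.15 ± 0.19 (edgeR adjusted p = 0.818). Its highest and lowest values were both in the Sgo1-/+ group, in replicates 6 and 3.

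Sult1b1, which acts on thyroid hormones and phenols, ranged from 158 through 208 to 268 CPM in wild type and from 141 through 171 to 204 CPM in Sgo1-/+ libraries. Its change was -0.25 ± 0.14 (SE; edgeR adjusted p = 0.598). The change was -0.75 in the 4 libraries with a suffix in the column name and 0.00 in the other 8. Sult1c2 ranged from 30.4 through 45.1 to 61.8 CPM in wild type and from 26.1 through 37.3 to 57.9 CPM in Sgo1-/+ libraries, a change of -0.20 ± 0.20 (edgeR adjusted p = 0.763). Sult2b1, which sulfonates cholesterol and other hydroxysteroids, ranged from 19.0 through 24.9 to 38.0 CPM in wild type and from 19.4 through 22.8 to 26.0 CPM in Sgo1-/+ libraries, a change of -0.20 ± 0.16 (edgeR adjusted p = 0.702).
With scaling by total counts all 5 changes were above 0, and 4 of the 5 were below the median of all genes, as in the main scaling.

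The other 13 Sult genes had at most 8.86 counts in a library and were not tested. They include Sult1e1, the oestrogen sulfotransferase, and the Sult2a genes of hydroxysteroid sulfonation, which are known from liver. Sult2a2, Sult2a4 and Sult2a7 had 0 counts in all 12 libraries, which at 3 counts a library allows up to 0.240 to 0.800 CPM, for counting error only. Sult1c1, Sult3a1, Sult4a1, Sult5a1 and Sult6b1 were in the same range, with mean levels of 0.592 CPM (Sult6b1) or less.

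All 20 Ces genes lie on chromosome 8 (mm10, 93020214 to 105150109), the Ces1 genes on the minus strand and the Ces2 genes on the plus strand. The 9 tested were Ces1d, Ces1e, Ces1f, Ces1g, Ces2a, Ces2b, Ces2c, Ces2e and Ces2g. Per kb of exon Ces2c (165 CPM per kb), Ces2a (146) and Ces2e (104) stood above Ces1g (43.7), Ces1f (28.3), Ces1d (17.8), Ces2b (15.8), Ces1e (7.31) and Ces2g (2.87). Shared sequence bears on Ces2c most, with 63.9% of its 50-base words its own, then on Ces2a with 82.7%, and the other 7 had at least 90.6%. Ces2 enzymes of the gut are known for cutting esters with a large alcohol group, and mouse Ces2a and Ces2c for hydrolysing glycerides.

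Ces2a and Ces2e had the smallest p-values of the 27 tested members, and both were lower in the Sgo1-/+ libraries. Ces2a was 341, 403 and 541 CPM (lowest, median and highest) in wild type and 195, 279 and 334 CPM in Sgo1-/+ libraries. In the main scaling every Sgo1-/+ library therefore lay below every wild type library. Ranges that do not overlap in this direction were found for 18 of 13889 genes (0.130%), and in either direction for 47 (0.338%). The group levels were 415 ± 76.3 and 272 ± 57.4 CPM (SD, n = 6 each), and the log2 change was -0.61 ± 0.16 (SE; edgeR unadjusted p = 0.00224, adjusted p = 0.491). The exact two-sided permutation p was 0.00216, the smallest that 6 against 6 libraries can give and reached by 0.346% of genes, and 0.565 after adjustment over all 13889 genes. DESeq2 gave an adjusted p of 0.0726. Relative to total counts the genotypes overlapped in Ces2a. Wild type replicate 3 had 1451 Ces2a counts of 6746697, and Sgo1-/+ replicate 1 had 3466 of 8499001.

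Ces2e was 256, 339 and 383 CPM in wild type against 186, 225 and 298 CPM in Sgo1-/+ libraries. The ranges overlapped only through wild type replicate 5, at 256 CPM, and Sgo1-/+ replicates 1 and 6, at 262 and 298 CPM. The change was -0.51 ± 0.14 (SE; edgeR unadjusted p = 0.00281, adjusted p = 0.491; DESeq2 adjusted p = 0.0835), with an exact permutation p of 0.00866. Without the 3 libraries of even Ugt1a division the change was -0.61 ± 0.16 for Ces2a and -0.57 ± 0.15 for Ces2e (edgeR adjusted p = 0.304 for both). Within the 8 libraries without a column-name suffix it was -0.55 and -0.44, and within the 4 with one -0.72 and -0.63. With scaling by total counts the changes were -0.26 and -0.19, or -0.58 and -0.50 against the median of all genes (unadjusted p = 0.350 and 0.464).

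Ces2g was the only tested Ces member of the 9 with a change above 0. It was 4.72, 8.38 and 9.67 CPM in wild type against 7.16, 12.8 and 17.1 CPM in Sgo1-/+ libraries. Sgo1-/+ replicates 1, 2, 4 and 5 lay above all wild type libraries, and replicates 3 and 6 did not. The change was 0.68 ± 0.23 (SE; edgeR unadjusted p = 0.0111, adjusted p = 0.524), with an exact permutation p of 0.0303. It was 0.70 ± 0.20 without the 3 libraries (adjusted p = 0.320), and 0.75 and 0.56 within the libraries without and with a suffix.

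Ces2b was 42.5, 61.5 and 84.1 CPM in wild type against 39.3, 46.6 and 54.2 CPM in Sgo1-/+ libraries, with an SD of 16.7 CPM in wild type against 4.84 CPM in Sgo1-/+. Its change was -0.38 ± 0.16 (SE; edgeR unadjusted p = 0.0382, adjusted p = 0.536), and the exact permutation p was 0.0909. The change was -0.10 in the 8 libraries without a column-name suffix and -0.87 in the 4 with one. Ces2c was 290, 417 and 487 CPM in wild type against 255, 349 and 398 CPM in Sgo1-/+ libraries, a change of -0.26 ± 0.15 (edgeR unadjusted p = 0.0989, adjusted p = 0.601) that turned to 0.07 with scaling by total counts.

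Ratios within a library do not depend on scaling, and were formed after the values were seen, so no test is given. Ces2a counts were 88.5% to 127% of Ces2c counts in the wild type libraries and 67.4% to 84.2% in the Sgo1-/+ libraries, with no overlap. Ces2a already did not overlap by itself in the main scaling, so this ratio is not separate support. How often other pairs of genes do not overlap is not given. The 2 rows also share sequence, with 82.7% (Ces2a) and 63.9% (Ces2c) of words their own, so the division of counts between them enters the ratio. Ces2g counts were 1.49% to 3.23% of Ces2e counts in wild type, against 3.11% to 8.58% in Sgo1-/+ libraries, where replicates 3 and 6 lay within or next to the wild type range. Ces2b counts were 9.996% to 17.4% of Ces2c counts in wild type, against 11.5% to 19.0% in Sgo1-/+ libraries, and the ranges overlapped.

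**Figure D4:**
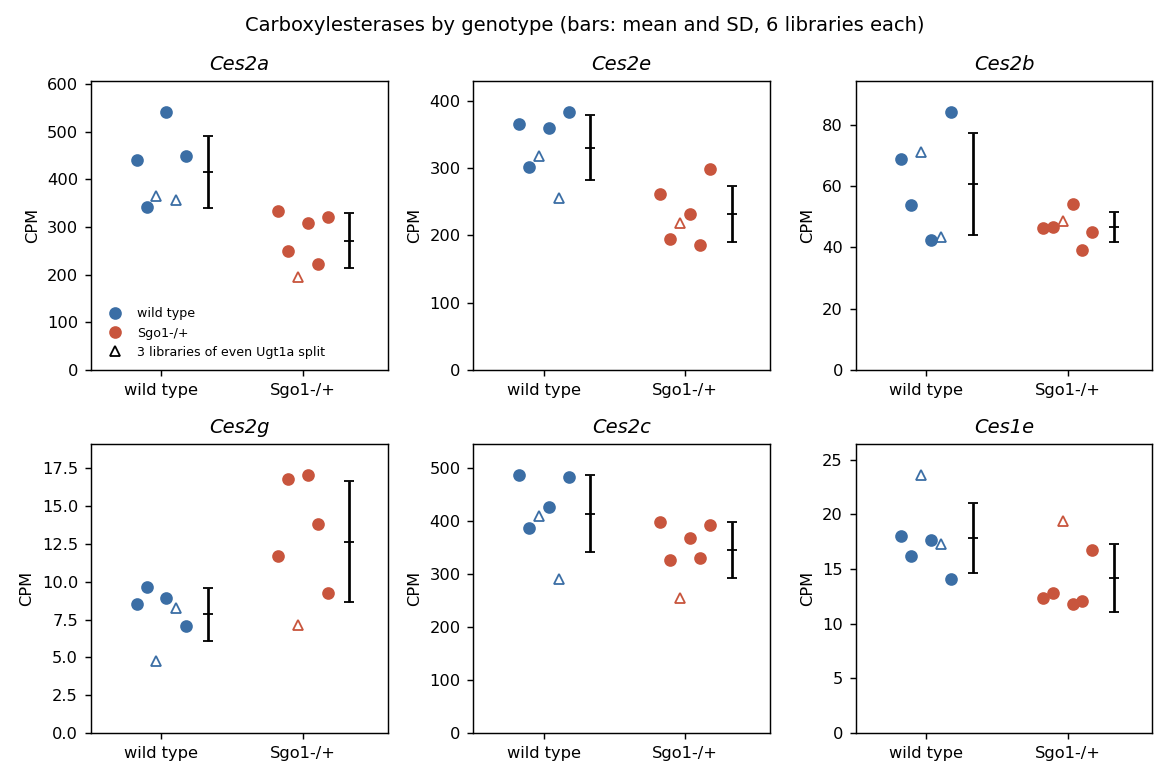
CPM (y axis from 0) of 6 carboxylesterases by genotype (x axis); points are libraries, open triangles the 3 libraries of even Ugt1a division, and bars the mean and SD of 6 libraries. In this scaling Ces2a does not overlap between genotypes (lowest wild type 341, highest Sgo1-/+ 334 CPM), while the other 5 do.

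The promoters of 4 Ces2 genes are printed because these neighbouring genes had changes of both signs. The 150 bases before the RefSeq start were searched on both strands for ACTTTG, letters found in sites of HNF4A and other nuclear receptors. Read from the opposite strand they are CAAAGT. They were in 4 of the 6 Ces2 promoters listed (Ces2a, Ces2e, Ces2f and Ces2g) and in 7.044% of 32851 promoters of that length. The printed promoters of Ces2a, Ces2e and Ces2g also share other letters, such as caaattcctgc. Promoters of these neighbouring genes are therefore not independent, and their share cannot be compared with that of all promoters. Enrichment of the letters in the Ces2 genes was not tested. The windows are on the plus strand of GRCm38.p6, at chr8:104733853-104734002, chr8:104926110-104926259, chr8:104961568-104961717 and chr8:104846918-104847067, with matches in capitals.
Ces2a: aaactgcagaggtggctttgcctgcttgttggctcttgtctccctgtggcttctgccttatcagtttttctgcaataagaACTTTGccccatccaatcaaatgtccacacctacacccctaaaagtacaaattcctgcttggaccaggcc
Ces2e: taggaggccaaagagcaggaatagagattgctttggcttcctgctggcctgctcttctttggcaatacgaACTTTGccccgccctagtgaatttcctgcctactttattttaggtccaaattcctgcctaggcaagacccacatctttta
Ces2g: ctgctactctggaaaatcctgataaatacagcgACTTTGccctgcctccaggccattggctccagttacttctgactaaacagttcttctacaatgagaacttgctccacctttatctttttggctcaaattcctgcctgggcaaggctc
Ces2c: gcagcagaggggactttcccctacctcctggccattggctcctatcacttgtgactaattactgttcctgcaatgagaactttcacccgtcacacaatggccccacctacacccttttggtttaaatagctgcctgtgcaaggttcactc
The match began 70 bases before the start in Ces2a, 80 in Ces2e and 117 in Ces2g. Of the printed genes that held the letters, Ces2a and Ces2e had changes below 0 and Ces2g a change above 0. Ces2c, printed without a match, had a change of -0.26. Hnf4a had a log2 change of -0.09, with 627 CPM in wild type against 589 CPM in Sgo1-/+ libraries. A part of HNF4A in the changes of the Ces2 genes was not tested.

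The Ces1 genes, whose enzymes prefer esters with a small alcohol group and which include lipid hydrolases of liver and fat, were tested for 4 members, and Ces1d, Ces1e, Ces1f and Ces1g had changes below 0 and no unadjusted p under 0.05. Ces1e was 14.1, 17.5 and 23.6 CPM in wild type against 11.8, 12.6 and 19.4 CPM in Sgo1-/+ libraries, a change of -0.33 ± 0.16 (SE; edgeR unadjusted p = 0.0625, adjusted p = 0.553). The Sgo1-/+ libraries above 12.8 CPM were replicates 3 and 6. Ces1g ranged from 48.7 to 191 CPM over the 12 libraries, Ces1f from 58.4 to 140 CPM and Ces1d from 20.3 to 76.5 CPM. The Ces1d change was 0.10 within the suffix libraries and -0.72 outside them. Their highest values were all in wild type replicate 2, and Sgo1-/+ replicate 6 was the highest of its genotype for each. Without the 3 libraries of even Ugt1a division, 7 of 9 Ces members had an unadjusted p under 0.05, Ces1f, Ces1g and Ces2c being added, against 11.6% of 14320 genes (6.45% lower), and the lowest adjusted p was 0.304. The same fit gave 4 of 13 Ugt members (Ugt1a7c, Ugt1a6a, Ugt1a1 and Ugt8a) and 1 of 5 Sult members (Sult1b1), again with none past the adjusted threshold. Leaving out Sgo1-/+ replicate 3 alone gave 4 Ugt members (Ugt1a10, Ugt1a5, Ugt8a and Ugt2b35), but the share of all genes also rose, to 18.2%. Leaving out Sgo1-/+ replicate 6 gave 2 Ugt members (7.98% of all genes), and wild type replicate 5 gave 1 Ugt and 1 Sult member (7.71%).

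The other 11 Ces genes were not tested: Ces1a, Ces1b, Ces1c, Ces1h, Ces2f, Ces2h, Ces3a, Ces3b, Ces4a and Ces5a had at most 8 counts in a library. Ces2d-ps, which the files class as protein-coding in spite of its pseudogene symbol, had 2.06 to 16.02 counts, and 23.1% of its words were its own. Ces3a and Ces3b are known as liver genes, and both had mean levels below 0.15 CPM here.

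Summed over its members, the Ces family had 1118, 1591 and 1718 CPM (lowest, median and highest) in wild type and 888, 1102 and 1428 CPM in Sgo1-/+ libraries. The Ugt family had 951, 1457 and 1783 CPM in wild type against 836, 1113 and 1507 CPM in Sgo1-/+ libraries. The Sult family had 766, 984 and 1064 CPM in wild type against 744, 884 and 1064 CPM in Sgo1-/+ libraries. In each family the lowest library of each genotype was 1 of the 3 with even Ugt1a division, and Sgo1-/+ replicate 6 was the highest of its genotype. These sums follow the most abundant members and were not tested.

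**Figure D5:**
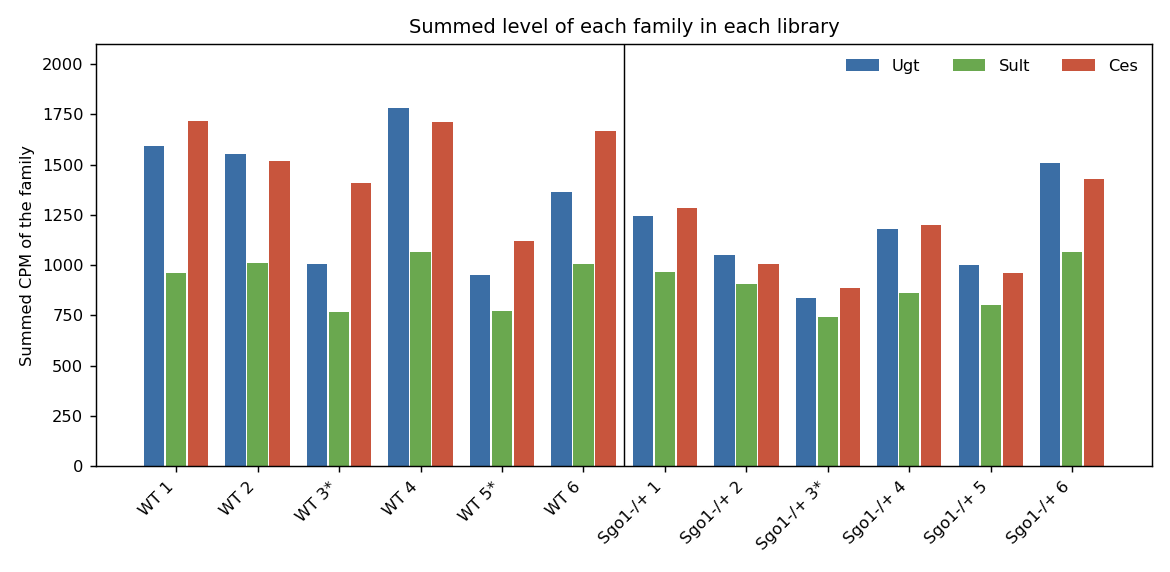
Summed CPM (y axis from 0) of the Ugt, Sult and Ces members in each library (x axis; the line parts wild type from Sgo1-/+, asterisks mark the 3 libraries of even Ugt1a division). Ces sums reach 1718 CPM in wild type against 1428 CPM in Sgo1-/+ libraries, and Sult sums peak at 1064 CPM in both.

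Genes that supply, follow or control these enzymes were read from 6 lists. For glucuronidation, 0 of 6 genes of UDP-glucuronic acid supply had an unadjusted p under 0.05, with a median log2 change of -0.15. The smallest p-values belonged to Slc35d1, a carrier of nucleotide sugars into the endoplasmic reticulum, at -0.35 ± 0.20, and Ugp2, which makes UDP-glucose, at -0.24 ± 0.15 (SE; edgeR adjusted p = 0.601 and 0.628). For sulfonation, 1 of 7 tested genes was higher at that p and none lower, with a median of 0.12 (5 changes above 0 and 2 below). Papss1, a PAPS synthase, had 78.0 ± 7.87 CPM in wild type against 96.7 ± 15.1 CPM in Sgo1-/+ libraries (SD, n = 6 each), a change of 0.31 ± 0.12 (edgeR unadjusted p = 0.0245, adjusted p = 0.530). Impad1, a phosphatase that clears the spent donor, had a change of 0.12 ± 0.09 (adjusted p = 0.694).

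Among 11 tested genes of other esterases and conjugate hydrolases, 1 was higher and 1 lower at an unadjusted p under 0.05, with a median of 0.03. Gusb, the lysosomal β-glucuronidase that cuts glucuronides, had 11.9 ± 4.97 CPM in wild type against 17.7 ± 3.96 CPM in Sgo1-/+ libraries (SD, n = 6 each), a change of 0.56 ± 0.25 (SE; edgeR unadjusted p = 0.0426, adjusted p = 0.539). Ephx2, an epoxide hydrolase, had a change of -0.30 ± 0.11 (edgeR unadjusted p = 0.0182, adjusted p = 0.527).

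Phase I oxidation genes act before conjugation. All 11 tested had changes below 0 in the main scaling, against 51.0% of all genes, with a median of -0.51. At an unadjusted p under 0.05, 3 were lower. The change nearest 0 was -0.0046 for Cyp2s1, and scaling by total counts raised the median of all genes by 0.32. Fmo5, a flavin monooxygenase, had 162 ± 28.2 CPM in wild type against 102 ± 37.6 CPM in Sgo1-/+ libraries (SD, n = 6 each), a change of -0.67 ± 0.20 (SE; edgeR unadjusted p = 0.00522, adjusted p = 0.491). Cyp4b1, a cytochrome P450, had a change of -0.72 ± 0.25 (edgeR unadjusted p = 0.0113, adjusted p = 0.524). Of 12 transcription factors of drug metabolism, 3 were lower at that p and none higher, with a median of -0.15. Nr1h4, the bile acid receptor FXR, had 98.4 ± 23.3 CPM in wild type against 63.8 ± 11.5 CPM in Sgo1-/+ libraries, a change of -0.63 ± 0.17 (edgeR unadjusted p = 0.00212, adjusted p = 0.491). Rxra, its partner, had a change of -0.20 ± 0.09 (adjusted p = 0.536). Of 6 tested genes of the transporter list, 1 was lower at that p and none higher, with a median of -0.15. The lower 1 was Slco2a1, a prostaglandin carrier and not an efflux pump of conjugates. Its change was -0.48 ± 0.14 (edgeR unadjusted p = 0.00398, adjusted p = 0.491). None of the tested Abc transporters had an unadjusted p under 0.05, and Abcc1, which exports conjugates, had a change of 0.21 ± 0.13 (adjusted p = 0.627). No gene of the 6 lists passed the adjusted threshold.

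Cell markers were read beside these results. Of 16 absorptive colonocyte markers, all tested, 15 were below 0 in log2 change in the main scaling, against 51.0% of all genes. At an unadjusted p under 0.05, 2 were lower. The markers summed to 22222 to 35618 CPM in wild type and 21253 to 29771 CPM in Sgo1-/+ libraries. Distal colon markers were above 0 for all 4 tested, with 2 higher at that p, and summed to 46.6 to 135 CPM in wild type and 51.7 to 332 CPM in Sgo1-/+ libraries. Hoxb13, a distal colon factor, reached 187, 142 and 140 CPM in replicates 2, 4 and 5 of the Sgo1-/+ genotype, with 23.1 to 65.9 CPM in the other 9 libraries. Those 3 libraries also had the highest Ces2g values, 16.8, 17.1 and 13.8 CPM. The summed ranges of hepatocyte markers were 1.38 to 7.37 CPM in wild type and 4.39 to 17.7 CPM in Sgo1-/+ libraries, and 1 of 1 tested gene of that list was higher. B and plasma cell markers were lower for 3 of 6 and T and NK cell markers for 2 of 4 at an unadjusted p under 0.05, adipocyte markers were higher for 2 of 5, and crypt base markers were higher for 4 and lower for 2 of 9. Goblet, smooth muscle, fibroblast, endothelial, macrophage and granulocyte, enteric and pancreatic acinar markers had none at that p. No list had a gene at 0 counts in every library, and the part of these cells in the changes of the members was not tested.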

How the data were processed

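Messenger RNA of colonic mucosa was sequenced on the Illumina MiSeq in 12 libraries, 6 per genotype, per the labels' protocols. The authors deposited, for each library, estimated counts per gene, taken as such because 63.8% to 75.3% of values above 0 were not whole, and a log2 column of normalized values that was not used here. The submitters' processing notes name mm10 and DESeq; the aligner, counter and strand setting were not given in the sources used here. Rows without an Ensembl identifier (505 of 38592; 1.79% to 5.40% of counts) were left out. Deposited counts were rounded, filtered with filterByExpr (minimum count 10, minimum total 15), scaled by trimmed mean of M values and tested with edgeR 4.0.16 in R 4.3.3; DESeq2 1.42.0 and limma 3.58.1 were alternatives. Code was tested on simulated data. The exact permutation test took all 924 ways of placing 6 labels and used mean log2 CPM with a prior count of 2. Totals of 5711553 to 10198304 counts limit precision, and 3 counts equal 0.240 to 0.800 CPM. Named with a change were, per family, the 5 tested members with the smallest unadjusted p and the 3 most abundant, and per pathway list the 2 with the smallest p. Some other genes were named besides, such as Papss2 and Slc26a2. The members, pathway lists and cell marker lists were chosen with earlier results of these data known. Sequences came from GENCODE M21 and from RefSeq promoters (GRCm38.p6), matched by symbol; exon lengths were merged GENCODE exons. Other scalings, filters, covariates, a replicate block and left-out libraries were tried as alternatives.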

Additional observations from a re-analysis of the deposited data

Results flagged for a closer look

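Values far from the rest of their genotype, by Dixon's test at the 95% level, were looked for in 72 groups of 6 libraries, and 7 were found; chance flags about 1 in 20 groups. Among the members these were Ugt1a6a in Sgo1-/+ replicate 6 (119.5 CPM, the next being 71.7), Ugt1a5 in Sgo1-/+ replicate 3 (31.4 CPM, the next 4.91), Ugt8a in wild type replicate 5 (208.7 CPM, the next 63.3) and Ugt8a in Sgo1-/+ replicate 3 (74.8 CPM, the next 22.0). Among the genes of the pathway lists they were Papss1 in Sgo1-/+ replicate 3 (lowest, 66.8 CPM, the next 98.7), Impad1 in wild type replicate 4 (141.5 CPM, the next 119.9) and Fmo5 in Sgo1-/+ replicate 6 (177.0 CPM, the next 102.0). Of the 7 values, 3 came from Sgo1-/+ replicate 3 and 2 from Sgo1-/+ replicate 6. The groups did not cover every tested member, and Ugt1a10, Ugt1a2 and Ugt2b5 were not among them. In Sgo1-/+ replicate 3, Ugt1a10 had 31.0 CPM (the next 1.76) and Ugt1a2 had 30.9 CPM (the next 5.26). In Sgo1-/+ replicate 6, Ugt2b5 had 52.5 CPM (the next 27.8).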

How the results depend on the processing

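No member passed an adjusted p of 0.05 in the fit as reported. Over all genes, 0 passed in that fit, 30 with DESeq2, 1 with adjustment for the mitochondrial-like share, 1 within the 4 libraries with a column-name suffix, and 0 in each fit without 1 library. At an unadjusted p under 0.05 the Ugt count of 0 became 1 without a filter, with limma-voom and with the suffix as a covariate (Ugt8a each time), 5 with adjustment for the mitochondrial-like share, 3 within the suffix libraries, 4 without the 3 libraries of even Ugt1a division, and 0 to 4 when 1 library was left out. The Sult count of 0 became 2 with the mitochondrial-like share, 1 within the suffix libraries, 1 without the 3 libraries, and 0 to 1 when 1 library was left out. The Ces count of 4 became 1 with total counts, 7 with the mitochondrial-like share, 7 without the 3 libraries, and 3 to 6 when 1 library was left out. A replicate block gave 1 Ugt, 0 Sult and 5 Ces members and 0 genes past the adjusted threshold. Libraries of the same number had correlated deviations of -0.298 to 0.454, so the numbers were not taken as pairs. Scaling by total counts turned the sign of Ugt1a7c (0.012), Ugt1a1 (0.0093), Ugt2b34 (0.18), Sult1b1 (0.047), Sult1d1 (0.17), Sult2b1 (0.15), Sult1c2 (0.11), Ces2c (0.066), Ugp2 (0.053), Ephx2 (0.029) and Rxra (0.11), beside a shift of 0.32 in the median of all genes. Ugt1a5 turned to 0.17 with the mitochondrial-like share, Ugt2b36 to 0.0082 and Sult1c2 to 0.10 within the suffix libraries, and Sult1b1 to 0.0015 outside them. No named gene changed sign when 1 library was left out. Ces2a stayed between -0.67 and -0.52, Ces2e between -0.58 and -0.44 and Ces2g between 0.59 and 0.79, but others moved by over 1.5 times: Ugt8a to -0.97 (without wild type replicate 5) and -3.05 (Sgo1-/+ replicate 3), Ugt1a5 to -0.33 (wild type 3) and -2.22 (Sgo1-/+ 3), Ugt1a7c to -0.044 (Sgo1-/+ 3) and -0.46 (wild type 5), Ugt1a1 to -0.090 (wild type 1), Ugt1a6a to -0.30, Ugt2b34 to -0.016 and Ugt2b36 to -0.16 (wild type 4), Sult1b1 to -0.16 (wild type 6), Sult1d1 to -0.053 (Sgo1-/+ 3), Sult2b1 to -0.067 and Sult1a1 to 0.094 (wild type 3), Sult1c2 to -0.072 (wild type 2), Slc35d1 to -0.23 (wild type 4) and Sgo1 to -0.35 (wild type 2). The share of all genes at an unadjusted p under 0.05, 9.04% as reported, is the background for the counts of members above. It was 12.2% with total counts, 8.18% without a filter, 10.2% with limma-voom and 8.96% with the suffix as a covariate. It was 10.1% with the mitochondrial-like share, 11.8% with the replicate block, 11.6% without the 3 libraries and 14.0% within the suffix libraries. When 1 library was left out, 830 to 2577 genes had such a p, against 1256. The cause of each of these differences was not tested. Leaving out the 3 libraries, summing the Ugt1a rows and the fits by suffix were chosen after the data were seen.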
